A study of Homo sapiens with 42 samples.

Results

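The accessibility of the ends of the cytosolic ribosomal protein genes was described in ATAC-seq peak lists from 7 human cancer cell lines. The genes were the protein-coding genes of the RefSeq annotation of GRCh38 on chromosomes 1 to 22 and X whose symbol is RPL or RPS with a number and at most one letter A or X, together with RPLP0, RPLP1, RPLP2 and RPSA. Copies with an L suffix and the RPS6K kinases were left out. This rule gave 77 of 19974 protein-coding genes, 46 of them for the large and 31 for the small subunit, and it used no measured value. A peak belonged to a gene when its summit lay within 1 kb of either end of the gene.

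ATAC-seq marks open chromatin, where a transposase inserts sequencing adapters. The lines were 92-1 (uveal melanoma), 22RV1 (prostate cancer), RD (rhabdomyosarcoma), A375 (melanoma), DU4475 (breast cancer), HCT116 (colorectal cancer) and MV411 (acute myeloid leukaemia), all labelled wild type. Each was treated for 4 h with DMSO, the solvent control, or with FHT-1015, which inhibits SMARCA4 and SMARCA2, the ATPases that drive the BAF chromatin remodelling complexes. Each of the 14 groups held 3 samples labelled as biological replicates, 42 samples in all. The labels do not say whether these were separate cultures, so the p-values measure the spread between these samples. In bulk cells a weaker site in every cell and a site open in fewer cells cannot be told apart.

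Every ribosome needs one copy of nearly every ribosomal protein, so these genes are transcribed at high and closely matched levels in dividing cells. Their promoters are nucleosome-free and usually lack a TATA box. Their transcripts start within a short run of pyrimidines, the 5′ terminal oligopyrimidine tract, through which the mTOR pathway controls translation. Some of the proteins have particular roles: RPLP0, RPLP1, RPLP2 and RPL12 build the stalk that recruits translation factors, and RPSA is also known as a laminin receptor.

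RefSeq promoter sequences (GRCh38.p14) were matched for 62 of the 77 genes. Stretches of 170 bases, the last 20 of them from the annotated start onward, are given for 6 genes on which the results turn: RPL12, RPS15, RPS24 and RPLP0 for the drug comparison, RPSA as the gene with the lowest difference, and RPL19 as the lowest-ranked gene. Capitals mark the unbroken run of C and T that covers the annotated start. RPL12 lies at chr9:127451387-127451556 (minus strand), RPS15 at chr19:1438246-1438415 (plus), RPS24 at chr10:78033713-78033882 (plus), RPLP0 at chr12:120201092-120201261 (minus), RPSA at chr3:39406570-39406739 (plus) and RPL19 at chr17:39200133-39200302 (plus).
RPL12: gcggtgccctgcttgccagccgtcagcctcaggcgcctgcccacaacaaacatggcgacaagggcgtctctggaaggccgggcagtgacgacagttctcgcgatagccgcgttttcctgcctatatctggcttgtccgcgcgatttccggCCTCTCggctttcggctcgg
RPS15: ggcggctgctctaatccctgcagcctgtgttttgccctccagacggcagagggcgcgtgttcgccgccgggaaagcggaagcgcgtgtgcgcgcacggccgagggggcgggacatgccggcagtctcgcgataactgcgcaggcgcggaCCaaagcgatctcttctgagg
RPS24: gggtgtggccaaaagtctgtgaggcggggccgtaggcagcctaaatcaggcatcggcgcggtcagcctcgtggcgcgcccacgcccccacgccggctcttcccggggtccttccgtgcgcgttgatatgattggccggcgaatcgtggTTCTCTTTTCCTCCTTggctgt
RPLP0: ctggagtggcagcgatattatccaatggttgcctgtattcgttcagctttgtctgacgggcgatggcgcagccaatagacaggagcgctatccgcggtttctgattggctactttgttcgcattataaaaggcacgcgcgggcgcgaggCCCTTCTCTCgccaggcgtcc
RPSA: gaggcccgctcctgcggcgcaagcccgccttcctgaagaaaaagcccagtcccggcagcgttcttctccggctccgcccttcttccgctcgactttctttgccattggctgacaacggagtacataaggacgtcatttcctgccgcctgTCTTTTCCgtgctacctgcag
RPL19: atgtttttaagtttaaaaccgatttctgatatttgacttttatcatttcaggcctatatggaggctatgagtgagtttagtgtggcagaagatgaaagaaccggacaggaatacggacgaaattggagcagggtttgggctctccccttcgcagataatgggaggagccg
The run over the start was 16 bases in RPS24, 10 in RPLP0, 8 in RPSA, 6 in RPL12, 2 in RPS15 and 0 in RPL19. RPL12 holds TTCCGG, the other strand of the ETS motif CCGGAA, directly before its run, and RPLP0 holds TATAAA.

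Across the 62 promoters, windows of 250 bases before to 50 after the start, a run of pyrimidines over the start and a C at the start differed more in share from the annotation as a whole than the motifs did. An annotated start within a run of at least 5 C or T was found in 44 of 62 (71.0%), against 8.09% of all 15813 promoters. The start base was C in 74.2%, against 11.3%. CCGGAA, the core bound by ETS factors, occurred on either strand in 33 of 62 (53.2%), against 22.7%. AAGATGG, the core bound by YY1, occurred in 12.9%, against 6.36%. GGGCGG (54.8%, against 58.3%), CCAAT (35.5%, against 36.4%) and TATAAA (8.06%, against 9.75%) were about as common as elsewhere, CACGTG was found in 4.84% against 8.82%, and GCGCATGCG in 1.61% against 2.77%. The motifs were searched on both strands, and matches of different motifs may overlap. A match describes letters, not binding.

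Of the 62 genes with a known strand, 59 had their strongest peak within 1 kb of the annotated start in most of the samples with a peak, and 38 in all of them. The 3 exceptions were RPL41 (1 of 41 samples), RPL27A (2 of 42) and RPL4 (6 of 42), whose median summits lay 1512, 6179 and 7026.5 bp downstream. Of 2545 pairs of gene and sample with a peak, 2348 (92.3%) had it within 1 kb of the annotated start, against 89.5% for the other genes. Summits of the ribosomal protein genes lay at a median of −91 bp from the start (quartiles −149 and −37 bp), and 85.3% lay upstream. For the other genes the median was −48 bp, with 67.0% upstream. Both measures were taken within 1 kb of the start. The median was −94 bp in DMSO and −86.5 bp in FHT-1015 samples, a difference that was not tested. For 49 of the 62 genes the median summit lay within 200 bp of the start, and for RPL15 it lay 491 bp downstream.

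**Figure D1:**
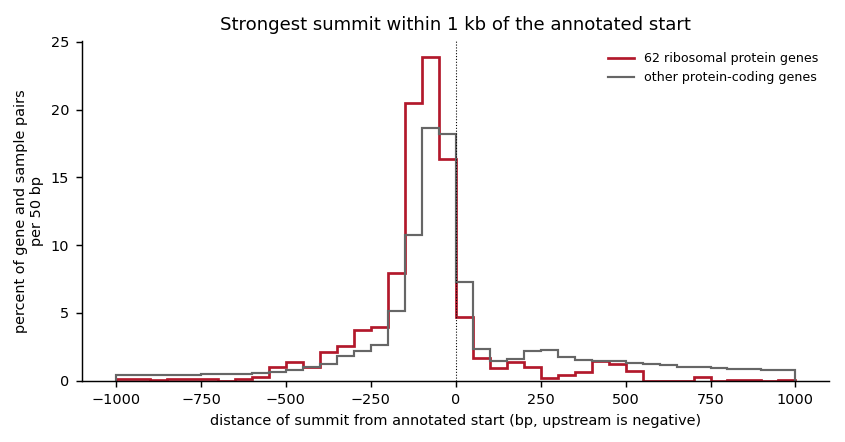
Distance in bp of the strongest summit from the annotated start (x axis, upstream negative) for 62 ribosomal protein genes and the other protein-coding genes, as percent of gene and sample pairs per 50 bp (y axis). The ribosomal protein genes peak between −150 and −50 bp, and their median of −91 bp lies upstream of the −48 bp of the other genes.

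The libraries differed widely in strength, and 92-1 stood apart. The lists held 114291 to 431956 peaks. Strict peaks, those with a −log10 q of at least 5, numbered 13760 to 121774 outside 92-1 and 1412 in the weakest FHT-1015 sample of 92-1. No read counts were used, so depth is unknown. Lineage markers in DMSO samples were open in part: MYOD1, MYOG and PAX7 in RD, SPI1, PTPRC and CD33 in MV411 and all 4 epithelial markers in DU4475 had strict peaks in 3 of 3 samples. SOX10 had none in 92-1 and 1 of 3 in A375, KLK3 had none in 22RV1, CDX1 none in HCT116, and MYF5 in RD and VIL1 in HCT116 had no peak of any strength. Because of 92-1, results are also given without it.

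Nearly every ribosomal protein gene had a peak of some strength in every line outside 92-1. A deposited peak was found at 75 to 77 of the 77 genes in each of the 36 samples outside 92-1, and at 53 to 76 in 92-1. The lists reach down to a −log10 p of 2.00, and the share of all genes with a deposited peak was not taken. These counts therefore do not set the 77 apart from other genes. Strict peaks were present at 45 to 77 genes per sample outside 92-1 (58.4–100%), against 35.3–67.0% of all genes. There, 27 genes were called in all 36 samples and 67 in at least 30, counts that were not taken over all genes. In the 92-1 lists, strict peaks were found at 67, 36 and 17 genes under DMSO and at 54, 4 and 2 under FHT-1015. The share of all genes with a strict peak moved along with these counts, from 2.71% to 67.0% over the 42 samples. No gene was strict in all 42 samples: RPS20, a protein of the small subunit head, came closest with 41.

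To compare samples whose lists differ in length and scale, each gene was given a percentile. All 19974 genes of a sample were ordered by the highest −log10 p among their gene-end peaks, so that 100 is the strongest and genes without a peak share the bottom. The median over the 77 genes of the mean DMSO percentile was 66.7, where all genes had 50.4. A mean above 50 was found for 70 of the 77 genes, against 50.4% of all genes. Mean percentiles under DMSO reached at least 80 in 10 of the 77. The share of all genes that did so was not computed, so this count does not show a high rank.

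The order among the genes was led by RPL15, a large subunit protein, at a mean of 91.8. Over the 21 DMSO samples RPL15 ranged from 79.1 to 99.2 with a median of 93.1. It was followed by RPS20 at 89.7, RPS3A (a small subunit protein) at 86.4, RPL27A (large subunit) at 86.1 and RPSA at 85.5. These 5 means lie closer together than the range of each over samples: RPSA alone ranged from 63.6 to 96.4. RPL15 and RPL27A were also the 2 genes found at one of the 10000 strongest peaks in all 21 DMSO samples.

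The end of the order was RPL19, a large subunit protein, at a mean of 37.5, and its 21 DMSO samples ran from 9.22 to 63.1 with a median of 39.8. RPL19 had a peak in 33 of the 42 samples, and the shared bottom value of a list stands for the rest. Next came RPL23, whose product can bind MDM2, and RPL29, both at 44.1, then RPL17, which lines the exit of the nascent chain tunnel, at 44.5, and RPL12 at 44.9. All 5 of the lowest genes code for large subunit proteins. Fewest strict calls were made at RPL19 (17 of 42 samples), RPL17 (22), RPS27 (23), RPL29 (24) and, tied, RPL23 and RPL36 (25). RPL19, RPL23, RPL29 and RPL36 were the 4 genes at none of the 10000 strongest peaks of any sample. Every gene with a known start had a strict peak there in at least 1 sample.

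**Figure D2:**
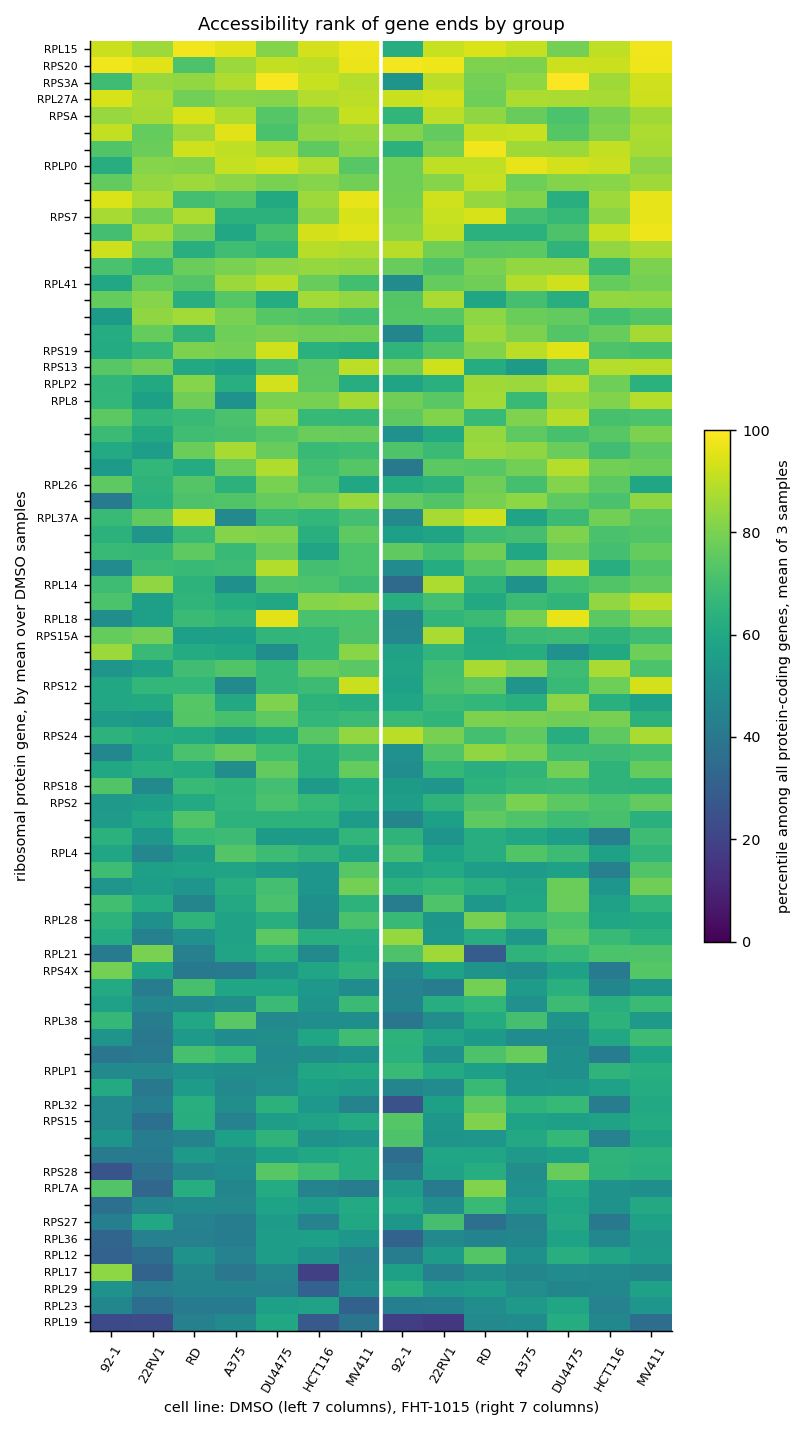
Mean percentile over 3 samples (colour, 0 to 100) of each of the 77 ribosomal protein genes (rows, ordered by the mean over DMSO samples and labelled where the text names the gene) in the 7 lines under DMSO (left columns) and FHT-1015 (right columns). RPL15 (91.8) leads and RPL19 (37.5) ends the order, and RPL17 stands out in DMSO-treated 92-1.

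Related gene groups gave similar levels. The median DMSO percentile was 71.7 for 24 other genes with terminal oligopyrimidine transcripts, such as elongation factor genes, 73.0 for 68 initiation and elongation factors, 71.4 for 42 ribosome biogenesis genes, 68.1 for 48 proteasome subunits and 65.5 for 77 mitochondrial ribosomal proteins. The 8 paralogues with an L suffix had 61.2. Large and small subunit genes had 66.6 and 66.7.

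Lines differed in the order of these genes. In a limma F test over the 7 DMSO groups, 55 of 77 genes had an adjusted p under 0.05, where 72.8% of the 18810 genes tested did, which is close to the share among the 77. The range between the highest and lowest line mean had a median of 26.5 percentile points over the 77 genes and 29.3 over all genes tested; without 92-1 these were 22.7 and 26.5. The highest line mean was in DU4475 for 23 genes and in MV411 for 18. The lowest was in 92-1 for 23 and in 22RV1 for 23. The same counts were not taken over all genes, so they do not show a preference of these genes for a line.

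RPL17 had the widest range, 64.2 points. Its DMSO mean was 83.2 ± 9.95 (SD, n = 3) in 92-1 and 19.0 ± 7.53 in HCT116, with the other 5 lines between 31.7 and 46.3. Single samples of RPL17 read 72.5, 92.2 and 84.8 in 92-1, all above the 51.8 that was its highest elsewhere (adjusted p = 2.03e-07, limma F test). Without 92-1 its range was 27.3. The readthrough gene RPL17-C18orf32 shares an end with RPL17, so the peak cannot be assigned to either.

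RPS28, in the small subunit, ranged over 48.0 points, from 26.0 ± 24.0 in 92-1 to 74.0 ± 5.84 in DU4475 (adjusted p = 5.74e-05), and had no peak in 2 of the 3 samples of 92-1. RPL18, in the large subunit, ranged over 46.1 points and was highest in DU4475, where its samples read 97.3, 94.5 and 94.7, above every DMSO sample of the other lines (adjusted p = 0.000138). RPS12, a small subunit protein, ranged over 44.2 points: samples of MV411 read 92.4, 93.3 and 90.7 and those of A375 50.1, 42.5 and 51.1 (adjusted p = 4.72e-05). RPL37A, in the large subunit, ranged over 44.0 points, with 90.1, 89.4 and 93.7 in RD against 48.8, 44.0 and 48.3 in A375 (adjusted p = 0.000251). For RPL18, RPS12 and RPL37A the highest and lowest of these groups did not overlap.

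FHT-1015 was compared with DMSO over the 7 lines to ask whether inhibition of the BAF ATPases moved these gene ends relative to other genes. RPL12 rose, by 11.87 ± 2.80 percentile points (SE, 21 against 21 samples, adjusted p = 0.0129, limma with Benjamini-Hochberg adjustment over all 18810 genes tested). It was the 1 of 77 genes called higher, where 0.521% of all genes tested were, and 0 were called lower, where 1.67% of all genes were. All 77 passed the filter of a peak in at least 6 samples. At an unadjusted p under 0.05, 16 were higher (20.8%, against 7.58% of all genes tested) and 1 lower (1.3%, against 8.78%).

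RPL12 is a protein at the base of the ribosomal stalk. In RD its percentiles were 50.3, 49.2 and 54.1 under DMSO and 77.1, 77.03 and 65.6 under FHT-1015. In 22RV1 they were 46.5, 35.4 and 26.8 against 52.6, 54.1 and 59.3. In MV411 they were 41.1, 47.5 and 44.0 against 53.8, 53.9 and 56.8. The treated samples of these lines lay above all controls, by the widest margin in RD. A375 gave 42.6, 44.9 and 45.3 against 51.9, 51.0 and 47.7, and DU4475 gave 55.7, 51.9 and 59.1 against 65.1, 62.1 and 61.1. Groups were apart there too. HCT116 (44.4, 48.9 and 60.8 against 60.8, 50.6 and 64.0) and 92-1 (39.3, 41.96 and 13.3 against 53.7, 21.1 and 52.8) overlapped, with the mean higher in each. In 92-1 RPL12 had no peak in DMSO sample 3 and FHT-1015 sample 2, so that 13.3 and 21.1 are the value shared by all genes without a peak and not a measured rank. The mean was higher in 7 of 7 lines and the groups did not overlap in 5. Without 92-1 the difference was 12.002 ± 2.39 (adjusted p = 0.0013). The strongest summit of RPL12 in 22RV1 lay at −103, 384 and 367 bp under DMSO and at −60, −95 and −58 bp under FHT-1015. In HCT116 it lay at −126, −726 and −966 bp against −89, −74 and −72 bp. In these lines the comparison is in part between different sites. Summits in RD and A375 were spread under both treatments, and in DU4475 and MV411 all lay between −111 and −53 bp. An end of LRSAM1 lies within 1 kb, so the peak may belong to either gene. RPL12 remained a gene of middle rank: its strict calls went from 13 of 21 DMSO to 17 of 21 FHT-1015 samples.

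Behind RPL12 came a group of genes whose call depended on 92-1. Leaving out this line, 5 genes were higher and 0 lower, where 1.47% of all genes were higher: RPL12, RPS2, RPL8, RPS15 and RPS24. The last 4 were named after their values were seen. RPS24, a small subunit protein mutated in some cases of Diamond-Blackfan anaemia, went from a median of 63.6 (30.5 to 90.5) over DMSO samples to 79.2 (59.6 to 97.1). Its difference was 11.12 ± 3.27 over 7 lines (adjusted p = 0.0546) and 8.80 ± 2.59 without 92-1 (adjusted p = 0.0384). RPS24 was higher in 7 of 7 lines, with groups apart in 22RV1 and A375.

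RPS15, in the head of the small subunit, went from a median of 55.1 (32.9 to 71.2) to 59.1 (41.99 to 96.3), a difference of 10.77 ± 3.15 (adjusted p = 0.0532) and of 8.19 ± 2.46 without 92-1 (adjusted p = 0.0432). RPS2, also of the small subunit, went from 62.7 (42.2 to 82.8) to 71.8 (42.7 to 90.04), 8.14 ± 2.69 (adjusted p = 0.0942) and 9.22 ± 2.55 without 92-1 (adjusted p = 0.026). RPL8, close to the peptidyl transferase centre, went from 77.4 (44.0 to 89.2) to 81.4 (64.4 to 98.4), 9.01 ± 2.87 (adjusted p = 0.0808) and 8.50 ± 2.49 without 92-1 (adjusted p = 0.0378). The ranges of DMSO and FHT-1015 samples overlapped for each, since the lines start from different levels.

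The other stalk genes, looked at after RPL12 was seen, had positive differences below the threshold. RPLP0 had medians of 84.3 (57.3 to 96.3) and 90.8 (63.0 to 97.7), a difference of 7.38 ± 2.16 (adjusted p = 0.0532), and was higher in 7 of 7 lines. RPLP1 had 7.08 ± 2.82 (adjusted p = 0.182, higher in 7 of 7 lines) and RPLP2 3.48 ± 2.57 (adjusted p = 0.535, higher in 5). RPL29, among the lowest-ranked genes, had 8.88 ± 2.67 (adjusted p = 0.0593, higher in 7 of 7).

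None of the 5 highest-ranked genes passed the threshold, and 3 had negative and 2 positive differences. RPSA had the lowest difference of all, −6.51 ± 3.16 (adjusted p = 0.289), with means lower in 6 of 7 lines: in A375 its samples read 86.8, 93.7 and 83.0 under DMSO and 78.1, 77.5 and 74.96 under FHT-1015, with no overlap. RPL15 had −5.16 ± 3.02 (adjusted p = 0.407) and −1.09 ± 1.29 without 92-1. RPL15, RPSA and RPS3A each had no peak in 1 treated sample of 92-1, where they take the shared bottom value and not a measured rank. Leaving out 1 sample gave differences of −7.68 to −3.63 for RPSA. RPS20 (1.53 ± 1.49, adjusted p = 0.66), RPL27A (2.06 ± 1.72, adjusted p = 0.598) and RPS3A (−3.38 ± 2.60, adjusted p = 0.557) had adjusted p-values well above the threshold.

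**Figure D3:**
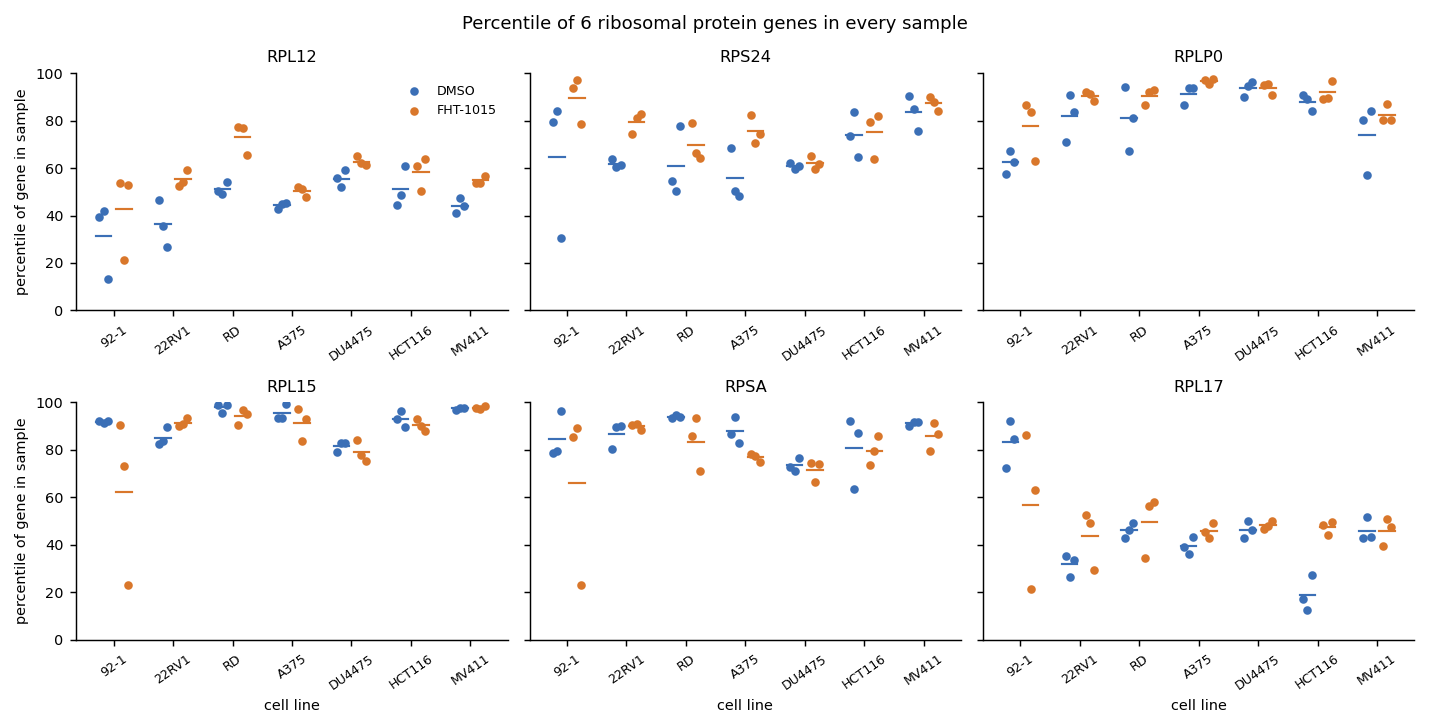
Percentile (y axis, 0 to 100) of 6 ribosomal protein genes in each of the 42 samples, by line (x axis) and treatment (colour), with a bar at the mean of 3 samples. RPL12 is higher under FHT-1015 in every line by its mean, RPSA is lower in 6 of 7, and RPL17 under DMSO is high in 92-1 alone.

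Differences were positive for 59 of the 77 genes (76.6%), where 51.9% of all genes tested were positive. The median difference was 3.17 points, against 0.20 for all genes. It was 3.19 in the large and 2.48 in the small subunit, and without 92-1 it was 4.11 over the 77 genes and 0.34 over all genes. Means were higher in all 7 lines for 8 genes (RPL12, RPLP0, RPLP1, RPS19, RPL8, RPS24, RPS2 and RPL29), where 2.28% of all genes tested were, and lower in all 7 for 0. The 77 genes share samples, so these counts describe them and are not tests.

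**Figure D4:**
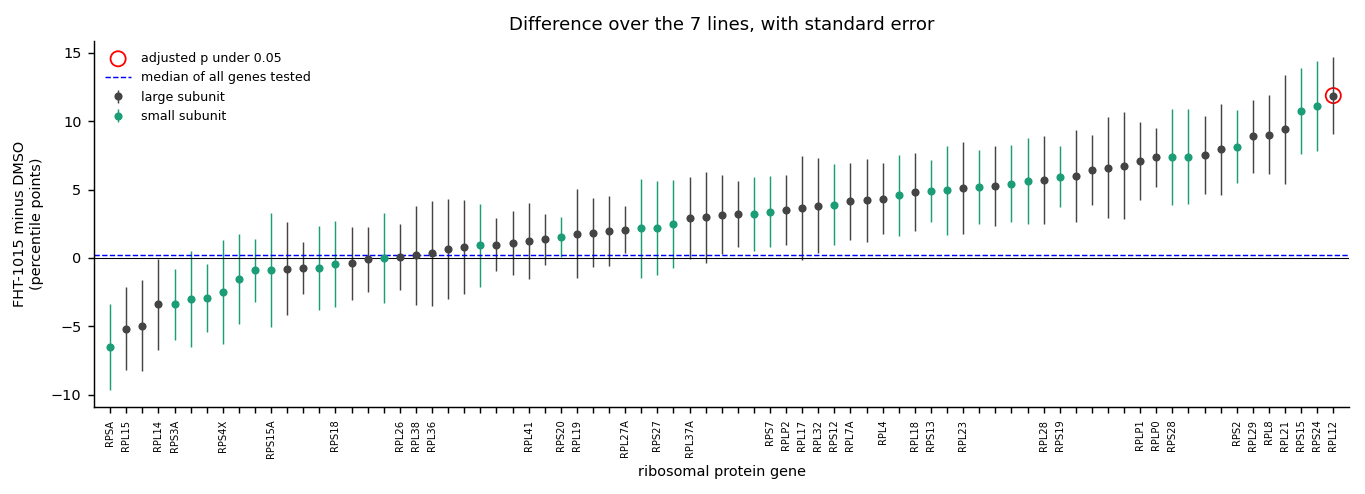
Difference of FHT-1015 minus DMSO in percentile points over the 7 lines (y axis), with the standard error, for the 77 ribosomal protein genes (x axis, in order of the difference, labelled where the text names the gene). RPL12 (11.87) is the gene past the threshold, and 59 of 77 lie above 0, with the median of all genes (0.20) as the dashed line.

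The related lists of genes had smaller medians. For initiation and elongation factors the median difference was 0.69, with 0 of 68 higher and 0 lower. Mitochondrial ribosomal proteins had 1.22 (0 of 76 tested in either direction), proteasome subunits 0.77 (0 of 46), terminal oligopyrimidine genes 2.01 (0 of 23), ribosome biogenesis genes 1.87 (1 higher and 0 lower of 42) and the L-suffix paralogues 2.45 (0 of 8). Calls depended on 92-1 in these lists too. Without it, 5 of 68 initiation and elongation factors, 4 of 42 biogenesis genes, 2 of 23 terminal oligopyrimidine genes, 1 of 76 mitochondrial ribosomal proteins and 0 of the proteasome subunits and paralogues were higher, and 1 proteasome subunit was lower. Their medians were then 1.89, 2.53, 2.99, 2.45, 1.55 and 1.23, in that order, against 4.11 for the ribosomal protein genes. Among the ribosomal protein genes 6.49% (5 of 77) were higher without 92-1. Initiation and elongation factors, biogenesis genes and terminal oligopyrimidine genes each had a larger share. The differences between these lists were not tested.

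Within single lines, 3 against 3 samples, the ribosomal protein genes moved by a median of 7.10 points in 22RV1, 5.28 in RD, 3.72 in A375, 2.44 in MV411, 1.68 in DU4475, 1.17 in HCT116 and −2.50 in 92-1. The median over all genes tested was 0.999 in 22RV1, 0.76 in RD, −0.20 in A375, 1.06 in MV411, −0.226 in DU4475, 0.0225 in HCT116 and −0.204 in 92-1. The number with a positive difference was 66 of 77 in 22RV1 (where 55.96% of all genes were positive), 61 in RD (53.6%), 60 in DU4475 (47.2%), 55 in A375 (47.6%), 53 in MV411 (59.96%), 43 in HCT116 (52.9%) and 35 in 92-1 (48.5%). The 43 in HCT116 and 35 in 92-1 are close to the shares of all genes. With the spread shared over all groups, 0 of 77 genes passed the threshold in 22RV1, where 1.53% of all genes did, in RD (0.17%), A375 (0.0478%), DU4475 (0%), HCT116 (0.0851%) and MV411 (0.649%).

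In 92-1, limma called 5 of the 77 higher, where 8.32% of all genes were, and 10 lower, where 10.2% were. Among the largest changes there were RPL21 (30.68) and RPS15 (26.22) upward, and RPL14 (−34.36), RPS4X (−32.31) and RPS15A (−30.32) downward. RPS4X, the X-linked copy of a small subunit gene, read 81.4, 82.2 and 74.0 under DMSO and 58.8, 58.8 and 22.99 under FHT-1015. The 2 weak FHT-1015 lists of 92-1 had a peak of any strength at 60 and 53 of the 77 genes, against 75 in the remaining list. A gene without a peak takes the shared bottom value of its list, 21.1 in sample 2 and 22.99 in sample 3: this holds for RPL14 and RPS15A in both samples and for RPS4X in sample 3. Among the genes with a peak, 16 share the percentile 58.8 in sample 2 and 22 share 63.0 in sample 3, because their peaks have the same −log10 p. RPL21 had no peak in DMSO sample 3. Fits of each line alone were added after the data were seen. When 92-1 was fitted alone, the median SE of the genes was 16.7 and not 7.69, and 0 genes passed in either direction. The calls in 92-1 thus rest on a spread borrowed from the other lines.

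The reverse held in 22RV1. Fitted alone, in a fit added after the data were seen, this line had 4 of 77 genes higher, where 1.05% of all genes were. They were RPS7, RPS13, RPS24 and RPS28, all of the small subunit and named here because of that count. RPS13 went from 78.2 ± 1.78 to 92.8 ± 1.35 (SD, n = 3, adjusted p = 0.00339 in limma), RPS24 from 61.9 ± 1.56 to 79.5 ± 4.55 (adjusted p = 0.0344), RPS7 from 78.8 ± 5.79 to 91.6 ± 0.823 (adjusted p = 0.0313) and RPS28 from 37.4 ± 7.51 to 57.4 ± 1.502 (adjusted p = 0.0478). No treated sample of these 4 overlapped a control.

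Groups that did not overlap were counted among genes with a peak in all 6 samples of a line. In 22RV1, all treated samples were above all controls for 24 of 76 ribosomal protein genes, where 15.1% of genes were, and below for 1, where 13.6% were. RD had 17 of 75 above (10% of genes) and 2 below (9.73%). In A375 it was 15 of 77 above (8.23%) and 1 below (8.47%). MV411 had 13 of 75 above (12.4%) and 1 below (11.4%), and DU4475 had 9 of 77 above (6.58%) and 0 below (7.15%). The counts of HCT116 were 5 of 72 above (5.1%) and 2 below (5.71%), and those of 92-1 were 1 of 39 above (6.75%) and 2 below (6.19%). RPL12 was among those above in 5 lines.

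Whether the drug moved a gene differently between lines was tested with the interaction of line and treatment. It passed for 0 of 77 genes, where 2.66% of all genes did. Without 92-1, a setting added after the data were seen, it passed for 1, where 2.79% of all genes did.

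A second measure asked how many of these genes were reached by the top of each list. Among the 10000 strongest peaks of a sample by −log10 p, a median of 22 ribosomal protein genes (12 to 43) were found in DMSO samples and of 40 (9 to 50) in FHT-1015 samples. MV411 had 21, 17 and 21 under DMSO and 37, 40 and 47 under FHT-1015. In 22RV1 the counts were 23, 22 and 18 against 39, 40 and 43, in RD 29, 21 and 26 against 41, 46 and 37, and in A375 19, 16 and 24 against 36, 36 and 33. HCT116 had 29, 30 and 34 against 41, 43 and 38, and DU4475 38, 43 and 43 against 50, 46 and 44. All treated samples were above all controls in these 6 lines. In 92-1 the counts were 12, 15 and 12 against 38, 18 and 9, and the groups overlapped.

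Gene ends in general filled more of these top peaks. The share of all genes reached was higher in treated samples, without overlap, in 22RV1, RD, A375, DU4475, HCT116 and MV411, in MV411 from 17.3–18.2% to 29.5–29.7% and in 22RV1 from 26.5–27.1% to 33.5–34.6%. The part of this general gain in the counts of ribosomal protein genes was not tested. In RD, the share of all genes moved from 27.6–28.4% to 29.0–30.2%.

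**Figure D5:**
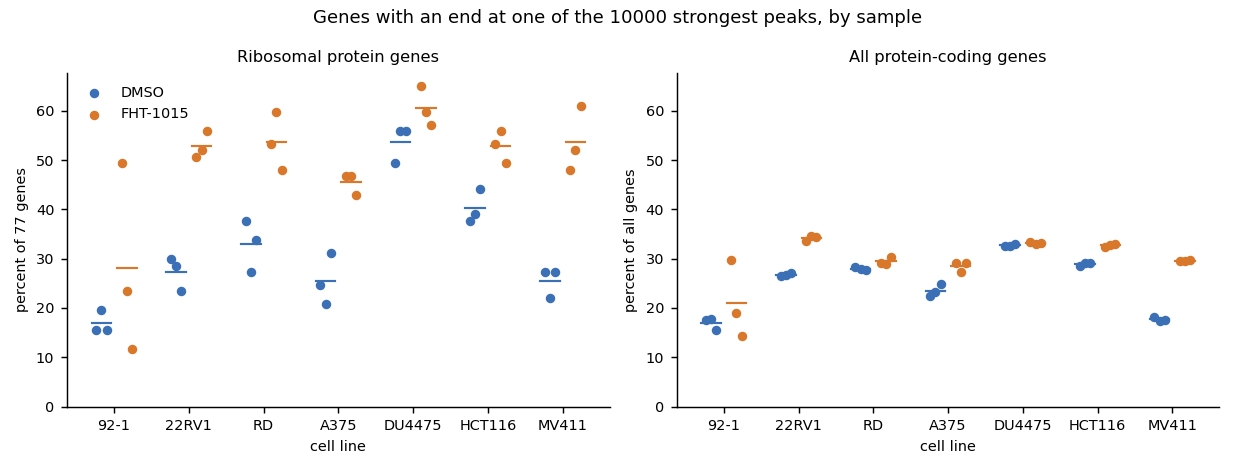
Percent of the 77 ribosomal protein genes (left) and of all 19974 protein-coding genes (right) with an end at one of the 10000 strongest peaks of a sample (y axes, from 0), by line, with points for samples and bars for means of 3. Treated samples lie above all controls in 6 lines in both panels, and overlap in 92-1.

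Per gene, 63 of the 77 were among the strongest peaks in more FHT-1015 than DMSO samples, 5 in fewer and 9 in as many. This was 81.8% in more and 6.49% in fewer, against 38.5% and 14.1% of all genes. An exact stratified permutation test, two-sided and within lines, gave 24 genes found more often at an unadjusted p under 0.05, where 6.91% of all genes were, and 0 found less often, where 0.546% were. After adjustment over all 19974 genes, 0 passed, and 0 of all genes did. The 24 were 12 of 46 large and 12 of 31 small subunit genes. RPS19 (8 of 21 DMSO against 18 of 21 FHT-1015 samples) and RPS2 (4 against 14) had the lowest p (exact p = 0.0005, adjusted p = 0.123), and are named for that. Without 92-1 the count was 22, where 5.88% of genes passed, and without MV411 it was 17 (3.47%). Over the 7 lines, the other lists had 13 of 42 ribosome biogenesis genes (31.0%) and 15 of 77 mitochondrial ribosomal proteins (19.5%). They also had 15 of 68 initiation and elongation factors (22.1%), 6 of 48 proteasome subunits (12.5%) and 4 of 24 terminal oligopyrimidine genes (16.7%). The 24 of 77 ribosomal protein genes were 31.2%, about the share of the biogenesis genes.

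When the 5000 highest-ranked genes were taken in place of the strongest peaks, so that the number of genes is fixed, 1 of the 77 was found more often at an unadjusted p under 0.05, where 0.951% of all genes were. This alternative was chosen after the data were seen, and it changed both what is ranked and how many are taken. With the 5000 strongest peaks the count was 8, where 3.9% of all genes were found more often.

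Presence of a strict peak gave no call. By counts, 20 genes were called in more and 41 in fewer FHT-1015 than DMSO samples (26% and 53.2%), against 9.09% and 62.2% of all genes. In the exact stratified test 0 of 77 passed in either direction after adjustment, as did 0 of all genes. At an unadjusted p under 0.05 there were 0 of 77, where 4.38% of all genes were called less often. Of the 77, 27 were strict in all 36 samples outside 92-1, so only the samples of 92-1 could count in their test. These samples allow too few arrangements for a p under 0.05, whatever the drug did. The 0 of 77 therefore does not show that these genes keep strict peaks better than other genes. The share of all genes with a strict peak was lower in all treated samples than in all controls in 22RV1, RD, DU4475 and MV411. The number of ribosomal protein genes with one overlapped between treatments in each of the 7 lines.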

How the data were processed

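Peak lists of 42 samples, called by the authors per sample, were used. Bowtie2, Picard, MACS2, HOMER, limma and the build hg38 are named in the submitters' processing notes, without versions. Per the labels' protocols, libraries followed the original ATAC-seq method with bead selection on both sides. The authors deposited for each peak a score (not used), a fold enrichment, which is a ratio over background, and p and q on the −log10 scale. These values are the authors' and served only to rank or filter peaks within a list, since lists differ in depth, which is unknown. Peak names of 92-1, 22RV1, HCT116 and MV411 include the word small, and no label explains it.

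Genes and promoters came from RefSeq tables (GRCh38.p14). Percentiles, with genes lacking a peak tied at the bottom, were tested with limma 3.58.1 in R 4.3.3 (trend, robust) with line and treatment as terms, with 14 group means for single lines, and with Benjamini-Hochberg adjustment over the 18810 genes with a peak in at least 6 samples, at 0.05. Presence of a strict peak and of one of the 10000 strongest was tested with an exact permutation test stratified by line in Python 3.11.15 (scipy 1.17.1), adjusted over 19974 genes. Both were tested on simulated data. Named were the genes past the threshold over the lines, up to 3 per direction within a line, the 5 highest, the 5 lowest, the 5 with the widest range between lines, and the 5 with the fewest strict calls. Alternatives were a replicate block, other filters, windows, ranks and weights, and leaving out samples or lines. The genes and lists were chosen with earlier results of these data known. Strand was not used for 15 genes, whose starts are not analysed here. A few genes that the rule would name are not reported here.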

Additional observations from a re-analysis of the deposited data

Results flagged for a closer look

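Some genes moved in opposite directions in 2 lines, with all treated samples on one side of all controls in each. The difference between the lines was not tested for the pair, and in the interaction test over 7 lines 0 of 77 genes passed. With 3 samples in a group, such splits also occur among other genes.

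RPL28 was apart upward in DU4475 and downward in MV411, a gap of 18.9 points.

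In the other cases the line with the lower values was 92-1, whose FHT-1015 lists were weak. Of the 3 treated samples of 92-1, RPL32 had no peak in 2, and RPL15, RPL38 and RPS4X had none in 1. RPL32 differed by 36.8 points between 22RV1 and 92-1 and by 38.6 between MV411 and 92-1. RPL15 differed by 35.9 points between 22RV1 and 92-1, and RPL38 by 34.3 between the same lines. For RPL7A the gap was 36.8 points between RD and 92-1 and 25.1 between MV411 and 92-1. For RPS4X it was 40.0 points between A375 and 92-1 and 37.5 between DU4475 and 92-1. The strongest summit of RPL7A lay 3472 to 3976 bp downstream of its start in all samples of 92-1. In RD it lay between −523 and 13 bp, and in MV411 at either site. RPL38 had it at 7354, 7314 and 6878 bp in some 92-1 samples, and between −132 and −58 bp in 22RV1. For these genes the gap therefore compares different sites in part.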

How the results depend on the processing

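Over the 7 lines, the count of ribosomal protein genes higher under FHT-1015 was 1. The share of all genes called higher stands in brackets after each alternative. The count was 5 with a peak required in at least 21 samples (0.763%), 3 with normal scores (0.686%), 2 with windows of 500 bp (0.288%) and 2 with 2 kb (0.699%), 3 at gene starts alone (0.449%), 7 with sample weights (1.37%), 5 without 92-1 (1.47%), 0 in 92-1, 22RV1, HCT116 and MV411, the 4 lines whose peak names include small (0.0106%), and 0 in the other 3 (0.0851%). Added after seeing the data, starts without 92-1 gave 3 (1.25%) and weights without 92-1 gave 4 (1.21%). Leaving out 1 sample gave 1 to 4. None of these settings gave a lower gene, RPL12 was called in each except the 2 subsets of lines (differences of 11.96 and 11.74, adjusted p = 0.272 and 0.0638), and the median difference stayed between 1.58 and 4.64 points where the percentile itself was fitted. Within lines, summed over them, 5 genes were higher (13 with weights, or 2.41% of gene and line pairs against 0.7% over all genes, 1 to 9 without 1 sample) and 10 lower (6 by fold enrichment, 6 at starts, 0 with weights, 0 with lines fitted alone, 5 to 21 without 1 sample). The 13 were 9 in 22RV1, where 495 of 18810 genes were higher, 2 in RD (63), 1 in A375 (48) and 1 in MV411 (235). The lowest and highest of the ranges within lines came from leaving out 92-1 samples. For the 10000 strongest peaks the count of 24 became 8 with the 5000 strongest (3.9% of all genes) and 1 with the 5000 highest-ranked genes (0.951%). Genes that differ between DMSO lines, 55, became 20 in those 4 lines (36.9% of all genes) and 36 in the other 3 (48.1%), and the interaction count of 0 became 1 without 92-1.

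Replicate numbers did not pair the samples: of 21 same-numbered pairs, 2 correlated above 0.1 (−0.0396 to 0.148), and 7 of 21 DMSO samples correlated best with their own number. A replicate block gave 1 gene higher over the lines, where 0.303% of all genes were. Within lines it gave 8 higher and 11 lower, all in 92-1. These were 1.48% and 2.04% of gene and line pairs, close to the 1.19% and 1.73% over all genes.

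No read counts were used, so depth is unknown. Weak peaks, shared ranks and genes without a peak limit what the 92-1 lists can show.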

Other observations

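Strict peaks within 1 kb of the far end of a gene were found at a median of 9.68% of these genes per sample, against 4.996% of all genes. Peaks near the start were not left out, so in a short gene 1 peak can lie within 1 kb of both ends. Of the 62 with a known strand, a median of 6 genes had a strict far-end peak, up to 10 in DMSO samples. The second FHT-1015 sample of A375 had 17. RPL27A had one in 39 of 42 samples, RPL41 in 37, RPL26 in 35, RPL4 in 34 and RPS18 in 33, and an end of another protein-coding gene lies within 1 kb of each of these genes (TRIM66, ZC3H10, KRABD2, SNAPC5 and VPS52 among them). The median summit of RPL27A lay 6179 bp downstream of its start, so its high rank describes that site and not its promoter. An end of another protein-coding gene lies within 1 kb for 29 of the 77 genes, RPS2 (NDUFB10) and RPL18 (SPHK2) included.

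In the 33 genes with CCGGAA the median DMSO percentile was 62.7 and the median difference under FHT-1015 3.37 points, and in the genes without it 66.1 and 2.99. The median difference was 4.93 in the 8 genes with AAGATGG and 2.33 in those without, 1.80 in the 22 with CCAAT and 4.02 without, 6.44 in the 5 with TATAAA and 2.93 without, and 1.59 in the 24 with neither CCGGAA nor AAGATGG and 3.65 in the rest. These values describe the genes and were not tested.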
